A study of Mus musculus with 6 samples.

Results

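Surface markers that place a B cell precursor on its path of development were examined in leukaemic mouse B cells with and without gamma-catenin. The set was chosen by name, with earlier results of these data known. It held 10 genes of the 19938 that had a probe set with exactly 1 gene symbol. Enpep and Ptprc encode BP-1 and B220, which were used to sort the cells. With them were the progenitor receptors Kit and Flt3 with Cd34, and the early B-lineage markers Ly6d, Cd93, Spn and Cd24a. The last was Cd2, which appears late in the pre-B stage. Each of the 10 had 1 probe set. Their levels are RMA log2 signals from 1-colour Affymetrix whole-transcript arrays, 1 array per sample.

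The KO group held 3 samples of genotype Jup-/- and the WT group 3 samples of genotype Jup+/+, all on the C57BL/6 background and labelled as biological replicates. Jup encodes gamma-catenin, also called plakoglobin, a junction protein related to beta-catenin. In both groups CD45.2+ fetal liver cells had reconstituted CD45.1+ mice for at least 8 weeks. The bone marrow of these chimeras was then transduced with a retrovirus for BCR-ABL1, a tyrosine kinase oncogene formed by the Philadelphia translocation, and green fluorescent protein, and was passed into lethally irradiated CD45.1+ recipients. At day 21 the fluorescent B220+ BP-1+ CD45.2+ cells were sorted, so that the cells of both groups carried the oncogene and had passed the same gate. The ages of the animals are not given in the sources used here.

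B cells develop in the marrow from progenitors that carry the stem cell factor receptor KIT and the cytokine receptor FLT3 into pro-B, large pre-B, small pre-B and immature B cells. In the mouse scheme of fractions, sorted with antibodies to B220, CD43, heat stable antigen and BP-1, CD43 (Spn) marks the early fractions, BP-1 (Enpep) appears on late pro-B and early pre-B cells, and heat stable antigen (Cd24a) increases along the path. CD43 and KIT are lost and CD2 and CD25 are gained as cells become small pre-B cells.

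The upstream sequences of Enpep, Flt3 and Kit are shown because Enpep is the gate gene and, with Flt3, had the lower KO levels described below, and because the Kit sequence held matches to 2 of the 4 motifs searched. They are the 250 bases before the gene start in RefSeq on GRCm38.p6, 5′ to 3′, with motif matches in capitals.
Enpep, chr3:129332750-129332999, minus strand: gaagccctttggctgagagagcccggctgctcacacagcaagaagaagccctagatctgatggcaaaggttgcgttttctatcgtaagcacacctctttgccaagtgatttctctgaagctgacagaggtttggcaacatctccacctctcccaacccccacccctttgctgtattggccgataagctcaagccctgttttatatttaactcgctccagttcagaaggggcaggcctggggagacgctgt
Flt3, chr5:147400490-147400739, minus strand: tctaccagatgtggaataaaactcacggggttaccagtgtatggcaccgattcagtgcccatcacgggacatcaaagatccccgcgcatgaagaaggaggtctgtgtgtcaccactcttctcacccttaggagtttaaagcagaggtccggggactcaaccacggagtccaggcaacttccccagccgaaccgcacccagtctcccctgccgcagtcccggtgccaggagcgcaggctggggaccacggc
Kit, chr5:75574737-75574986, plus strand: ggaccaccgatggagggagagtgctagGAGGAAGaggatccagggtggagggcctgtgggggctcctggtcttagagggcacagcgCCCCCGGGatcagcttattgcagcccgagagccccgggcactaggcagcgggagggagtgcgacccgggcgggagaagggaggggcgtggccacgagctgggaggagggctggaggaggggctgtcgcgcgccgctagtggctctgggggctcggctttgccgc
Both strands were searched for 4 motifs of B-lineage and blood cell factors, CCCNNGGG for EBF1, CAGGTG for E2A, GAGGAAG for PU.1 and TGGGAAT for Ikaros. The Kit sequence held 1 match to the PU.1 letters, starting 223 bases before the gene start, and 1 to the EBF1 letters, starting 164 bases before it. The Enpep and Flt3 sequences held none of the 4, and the Spn window, not printed, held 3 matches to the EBF1 letters. They start 104, 13 and 12 bases before the gene start, and those at 13 and 12 overlap in 1 stretch. Among 32851 such windows of 250 bases, the EBF1 letters occurred in 11.8%, the E2A letters in 17.2%, the PU.1 letters in 10.6% and the Ikaros letters in 4.0%. The tables used gave windows for 6 of the 10 markers, and the motif letters are a description of these windows.

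The markers were first set against a level that stands for no expression, the 95th percentile of 1210 probe sets of olfactory and vomeronasal receptor genes, which blood cells are not known to use. This off-tissue level was 6.58 to 6.76 on the 6 arrays. Probe sets differ in how strongly they bind, so levels of different genes are not ranked here and each gene is only called above or not above it. The B cell label was checked first, and Cd79a, a signalling chain of the B cell receptor, and the B-lineage transcription factors Pax5 and Ebf1 lay 5.17 to 7.09 above the off-tissue level on all 6 arrays.

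Both gate transcripts and the markers of committed B cell precursors were above this level on all 6 arrays, and Cd34 on none. The margins are given for each gene as a description and are not compared between genes. Enpep exceeded it by 5.53 to 6.03 and Ptprc by 4.30 to 4.73. Cd24a, which encodes a small glycoprotein anchored by lipid, exceeded it by 6.07 to 6.56, and Cd93, the receptor recognised by the AA4.1 antibody, by 5.52 to 5.97. Cd2 exceeded it by 4.79 to 5.46, Ly6d by 2.16 to 4.28 and Spn by 2.47 to 2.85. Markers of the early fractions (Spn) and of the late pre-B stage (Cd2) were therefore both present, and a bulk array cannot tell whether the same cells held them.

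Cd34, a sialomucin of stem and progenitor cells, was below the off-tissue level on all 6 arrays, by 0.40 to 0.58. Flt3 was above it on all 6 arrays but by at most 0.53, and on 0 arrays did it exceed the 99th percentile of the same receptor genes. Kit was above the off-tissue level on 3 of 3 KO arrays and 1 of 3 WT arrays, and above the 99th percentile only in KO replicate 2. In all, 8 of the 10 markers exceeded the 95th percentile on every array and 7 the 99th. Of 10 measured genes listed for stem and multipotent progenitors, 6 (Lmo2, Cd33, Hlf, Slamf1, Tal1 and Gata2) exceeded the off-tissue level on all arrays. The other 4 (Procr, Meis1, Mecom and Hoxa9) exceeded it on none. Whether the 6 are used only by such progenitors was not tested.

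**Figure D1:**
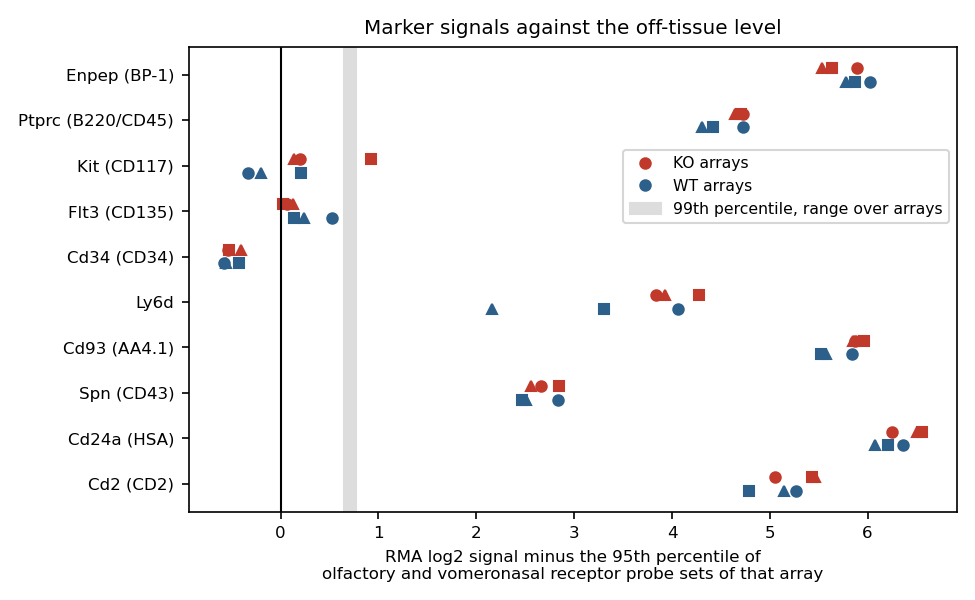
Signals of the 10 markers on each array, as the RMA log2 signal minus the 95th percentile of 1210 olfactory and vomeronasal receptor probe sets of that array (horizontal axis, log2). Red points are KO arrays and blue points WT arrays, circles, squares and triangles are replicates 1, 2 and 3, and the grey band is the 99th percentile over the arrays. Enpep, Ptprc, Ly6d, Cd93, Spn, Cd24a and Cd2 lie at 2.16 or more, while Kit, Flt3 and Cd34 lie between -0.58 and 0.93.

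KO and WT were compared to ask whether the loss of gamma-catenin went with a shift in stage. None of the 10 markers passed over all 21789 probe sets (limma, Benjamini-Hochberg adjusted p under 0.05), where 26 probe sets or 0.119% passed. At an unadjusted p under 0.05 there were 3 of the 10, against 9.22% of all probe sets. Flt3 and Enpep had lower KO means (4.73% of all probe sets in that direction) and Cd93 a higher one (4.48%). For 4 of the 10 the arrays of the groups were fully separate, against 14.0% of all probe sets. Enpep and Flt3 were separate with lower KO values (8.08% of all probe sets) and Ptprc and Cd93 with higher ones (5.94%). The KO mean was higher for 8 markers and lower for 2. Of all 21789 probe sets it was higher for 9641 and lower for 12148. The median difference of the markers was 0.20 (log2, KO minus WT), against -0.02 over all probe sets. The markers share the same 6 arrays and are not replicates of the comparison. In bulk samples, fewer cells of a type and less RNA per cell cannot be told apart.

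**Figure D2:**
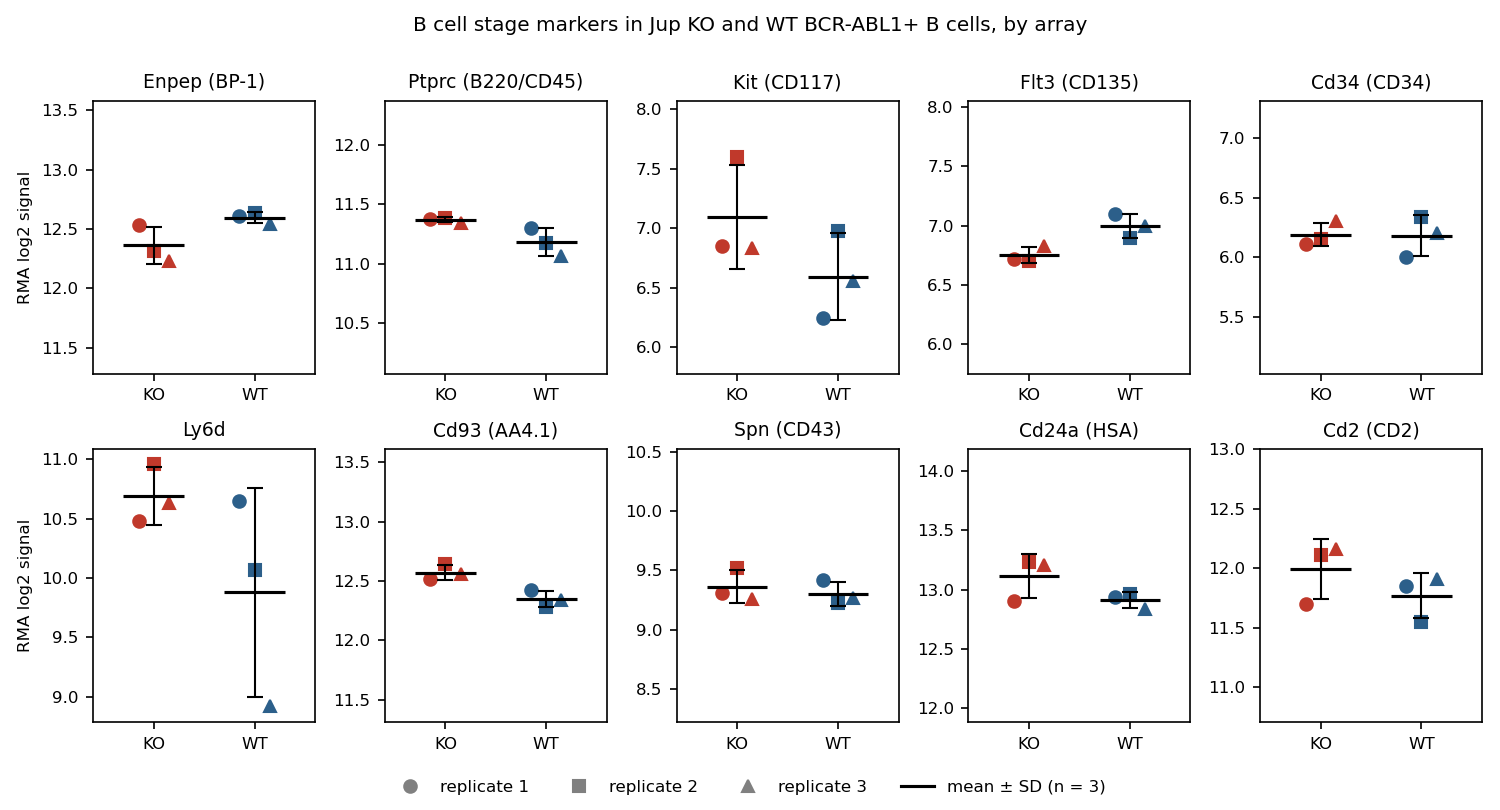
RMA log2 signal (vertical axis) of each marker on the 3 KO arrays (red) and the 3 WT arrays (blue), every panel spanning the same number of log2 units. Circles, squares and triangles are replicates 1, 2 and 3, the long bar is the mean and the error bar the SD (n = 3 each). The groups separate by a small gap for Enpep, Ptprc, Flt3 and Cd93, and WT replicate 3 lies apart for Ly6d.

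Enpep encodes BP-1, glutamyl aminopeptidase, an ectoenzyme of early B cells. Its level was 12.54, 12.32 and 12.23 in KO replicates 1, 2 and 3, and 12.61, 12.63 and 12.54 in WT replicates 1, 2 and 3. KO replicate 1 lay only 0.006 under the lowest WT array, while the other KO arrays were clearly lower, and the KO spread exceeded that of WT by a factor of 3.40. The mean was 12.36 ± 0.16 in KO and 12.59 ± 0.05 in WT (SD, n = 3 each), a KO minus WT difference of -0.23 log2 units (SE 0.09, adjusted p = 0.500 in limma). The difference was -0.32 without KO replicate 1 and -0.17 without KO replicate 3. After a further quantile normalization or median centring the Enpep groups overlapped, by 0.017 and 0.041.

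Ptprc encodes the phosphatase CD45, whose B cell isoform is B220. Its levels were 11.38, 11.38 and 11.35 in KO and 11.30, 11.18 and 11.06 in WT. The KO arrays were nearly alike and all above the highest WT array, by 0.043. The difference was 0.19 (SE 0.08, limma adjusted p = 0.554), with a 95% confidence interval of -0.002 to 0.38, and median centring made the groups overlap by 0.020. The probe set measures the gene and does not tell B220 from other CD45 isoforms, nor the CD45.2 from the CD45.1 allele.

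Flt3 encodes the receptor for the FLT3 ligand, which is shut off when PAX5 commits cells to the B lineage. It measured 6.72, 6.70 and 6.83 in KO and 7.10, 6.90 and 6.996 in WT, so that every KO array was lower. The difference was -0.25 (SE 0.08, limma adjusted p = 0.406), and its unadjusted p ranked 933rd of 21789. Since both groups were within 0.53 of the off-tissue level, the size of this difference is uncertain, and RMA compresses the changes of dim transcripts. Flt3 kept a gap between the groups of 0.016 under quantile normalization and 0.048 under median centring.

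Kit encodes the receptor for stem cell factor, present on progenitors and pro-B cells and also on mast cells and early myeloid cells. It measured 6.85, 7.60 and 6.84 in KO and 6.25, 6.97 and 6.56 in WT. The groups overlapped, because WT replicate 2 was above KO replicates 1 and 3, and KO replicate 2 was the highest of all. The means were 7.10 ± 0.44 in KO and 6.59 ± 0.37 in WT (SD, n = 3 each), a difference of 0.51 (SE 0.24, limma adjusted p = 0.583). Without KO replicate 2 it was 0.25, and without WT replicate 2 it was 0.70. Each KO array was above the WT array of the same replicate number. With that number as a block the SE of Kit was 0.095 (limma adjusted p = 0.161).

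Cd34 measured 6.11, 6.16 and 6.30 in KO and 6.00, 6.34 and 6.21 in WT. The KO values lay within the WT range, and the difference was 0.009 (SE 0.10, limma adjusted p = 0.990) with a 95% confidence interval of -0.23 to 0.25. A signal under the off-tissue level could hide a change of its transcript.

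Ly6d, which encodes a small anchored glycoprotein that marks lymphoid progenitors on entry to the B lineage, had the largest difference of the 10 and the widest spread in WT. It measured 10.48, 10.96 and 10.63 in KO and 10.65, 10.07 and 8.92 in WT. WT replicate 1 lay within the KO range and WT replicate 3 far under all other arrays. The means were 10.69 ± 0.24 in KO and 9.88 ± 0.88 in WT (SD, n = 3 each), a difference of 0.81 (SE 0.37, limma adjusted p = 0.575), or 1.76-fold higher in KO. Without WT replicate 3 the difference was 0.33, and without WT replicate 1 it was 1.20, so single WT arrays decided its size.

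Cd93, a C-type lectin-like receptor of B cell precursors that is lost on mature B cells, measured 12.52, 12.64 and 12.55 in KO and 12.42, 12.28 and 12.34 in WT. All KO arrays were higher, by a gap of 0.096 that remained at 0.151 under quantile normalization and 0.068 under median centring. The difference was 0.22 (SE 0.08, limma adjusted p = 0.419), or 1.17-fold, with a 95% confidence interval of 0.05 to 0.40. It ranged from 0.19 to 0.26 when each array was left out in turn.

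Spn encodes leukosialin (CD43), a mucin of early B cell precursors. It measured 9.31, 9.52 and 9.26 in KO and 9.42, 9.23 and 9.27 in WT, and the groups overlapped. The difference was 0.06 (SE 0.10, limma adjusted p = 0.925), with a 95% confidence interval of -0.16 to 0.28, and its sign turned without KO replicate 2.

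Cd24a measured 12.90, 13.24 and 13.21 in KO and 12.94, 12.97 and 12.84 in WT. KO replicate 1 lay among the WT arrays, and KO replicates 2 and 3 were above them all. The difference was 0.20 (SE 0.10, limma adjusted p = 0.627), 0.31 without KO replicate 1 and 0.14 without KO replicate 2.

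Cd2 encodes an adhesion receptor for CD48 that B cell precursors gain at the pre-B stage and that T and NK cells also carry. It measured 11.70, 12.11 and 12.16 in KO and 11.85, 11.55 and 11.91 in WT. As for Cd24a, KO replicate 1 lay within the WT range and the other KO arrays were above it. The difference was 0.22 (SE 0.14, limma adjusted p = 0.723), 0.37 without KO replicate 1 and 0.11 without WT replicate 2.

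**Figure D3:**
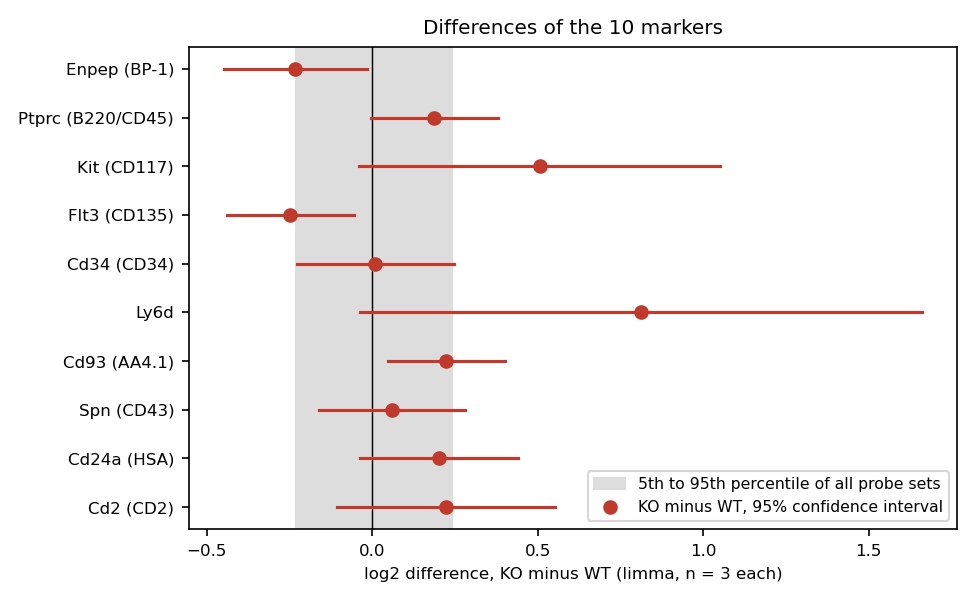
Log2 difference of each marker, KO minus WT (horizontal axis), with its 95% confidence interval from limma (n = 3 each). The grey band holds the 5th to the 95th percentile of the differences of all 21789 probe sets, -0.23 to 0.24. The intervals of Enpep, Flt3 and Cd93 lie to one side of 0, and Kit and Ly6d have the widest ones.

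KO replicate 1 stood nearer to WT than the other KO arrays for most markers. It was the KO array nearest to the WT mean for 6 of the 10 markers, and its value lay inside the WT range for 6, against 1 for KO replicate 2 and 4 for KO replicate 3. As deviations from the WT mean, KO replicates 1, 2 and 3 were at -0.06, -0.28 and -0.36 for Enpep. For Cd2 they were at -0.07, 0.34 and 0.39, and for Cd24a at -0.01, 0.32 and 0.29. KO replicates 2 and 3 thus had less Enpep and more Cd24a and Cd2 than every WT array, while KO replicate 1 did so only for Enpep, by the margin of 0.006. Flt3, Ptprc and Cd93 showed no such split, and there all KO arrays lay on one side.

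Genes listed for the small pre-B and immature B stages mostly had higher means in KO. How far each of these genes is limited to those stages was not tested. All gene lists were chosen with earlier results of these data known, so their counts are a description and not a test. Of the 15 small pre-B and immature B genes measured, 14 were higher, with a median difference of 0.41. There 7 did not overlap between the groups, all of them higher (5.94% of all probe sets). None passed over all probe sets, and at an unadjusted p under 0.05 there were 8 higher (4.48% of all probe sets) and 1 lower (4.73%) in limma. Of the 15, 13 exceeded the off-tissue level on all arrays and 2 (Cr2 and Fcer2a) on none. Fcer2a is counted both among the 7 without overlap and among the 8 higher. Cd72, an inhibitory co-receptor, measured 10.49, 11.58 and 11.31 in KO and 9.81, 9.76 and 9.42 in WT, a difference of 1.46 (SE 0.25, limma adjusted p = 0.105). It did not pass with all rows tested (limma adjusted p = 0.233) or without any single array other than KO replicate 1 (0.145 to 0.285). Without KO replicate 1, the KO array nearest to WT, Cd72 passed at 1.78 (limma adjusted p = 0.00891). Both this setting and array weights called more probe sets in all, 82 without KO replicate 1 and 150 with the weights, against 26 in the main fit. With arrays weighted by quality Cd72, Cd22, Ms4a1 (CD20) and the transcription factor gene Bach2 passed, with limma adjusted p of 0.0222 to 0.0462. WT replicate 1, the WT array with the highest value of each of these genes, had the lowest weight, 0.336 against 0.938 to 2.122 for the other arrays. Cd22, which restrains B cell receptor signals, had a difference of 1.28 and also passed without KO replicate 1, at 1.48 (limma adjusted p = 0.0467), and did not without any other single array (0.0872 to 0.296) or with all rows tested (0.233). Il2ra, which encodes the CD25 used to define small pre-B cells, measured 11.64, 11.95 and 11.46 in KO and 11.44, 11.32 and 11.00 in WT. Its lowest KO array was just above the highest WT array, and the difference of 0.43 (SE 0.15) did not pass (limma adjusted p = 0.425). Ltb, which encodes the ligand subunit lymphotoxin beta, was the 1 member with a lower KO mean, at -0.56 (SE 0.20, limma adjusted p = 0.438).

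Genes listed for the pro-B and early pre-B stages were closer to equal. Whether Rag1, Rag2 and the others are used at these stages only was not tested. Of 17 measured, 11 had a higher and 6 a lower KO mean. Their differences lay between -0.25 and 0.50 with a median of 0.05. In limma 0 passed, and at an unadjusted p under 0.05 there were 3 higher (4.48% of all probe sets) and 0 lower (4.73%). Rag2, needed with Rag1 to cut DNA for antibody gene assembly, measured 9.96, 10.13 and 10.24 in KO and 9.66, 9.85 and 9.57 in WT, all KO arrays being higher (0.42, SE 0.10, limma adjusted p = 0.260). Rag1 gave 0.50 (SE 0.16, limma adjusted p = 0.380). Dntt, which encodes terminal transferase, an enzyme of pro-B cells, was lowest at -0.25 (SE 0.16, limma adjusted p = 0.724), and at -0.066 without KO replicate 3. The surrogate light chain genes Vpreb1 and Vpreb2 gave -0.03 each.

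Genes of dividing cells, which are abundant in large pre-B cells, gave no difference past the threshold. Of 11 measured, 2 had a higher and 9 a lower KO mean. Their median difference was -0.06. The lowest was Aurka, a mitotic kinase, at -0.18 (SE 0.09, limma adjusted p = 0.603), and 0 had an unadjusted p under 0.05 in limma. Genes of stem and multipotent progenitors had a median of -0.06, with 3 of 10 higher and 7 lower in KO and 0 past the threshold. The 1 of them with an unadjusted p under 0.05 in limma (4.73% of all probe sets in that direction) was Procr, at -0.21. It encodes the endothelial protein C receptor of stem cells and lay under the off-tissue level on all arrays.

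**Figure D4:**
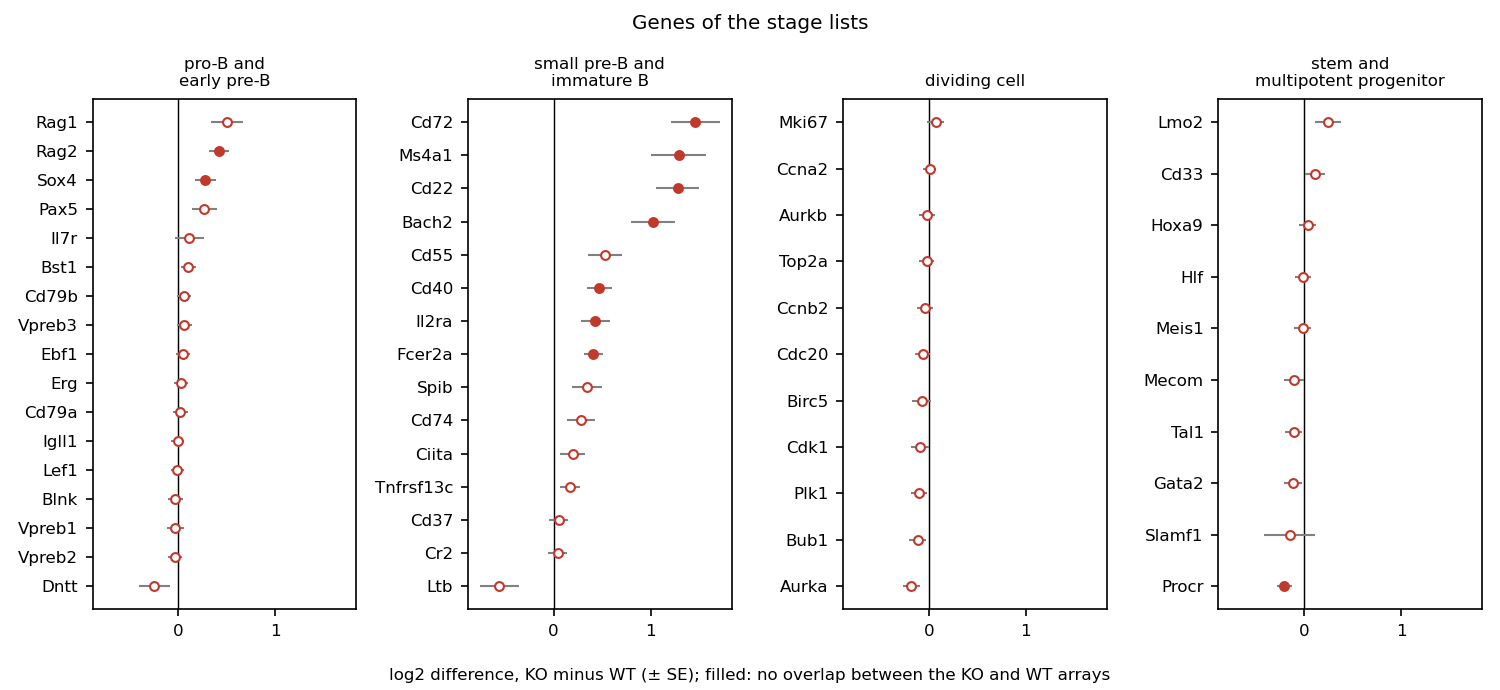
Log2 difference, KO minus WT, with its SE (horizontal axis), of each measured gene of 4 stage lists (panels). Filled points are genes whose KO and WT arrays did not overlap. The small pre-B and immature B genes reach from -0.56 to 1.46 with 7 filled points, and the dividing cell genes from -0.18 to 0.07 with none.

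The stage lists also differed between arrays. Each gene's WT mean was subtracted and the result averaged over the genes of a list. For small pre-B and immature B genes this average was 0.29, 0.59 and 0.60 in KO replicates 1, 2 and 3, and 0.20, -0.12 and -0.08 in WT replicates 1, 2 and 3. KO replicate 1 and WT replicate 1 were the nearest pair of the groups. Of the 15 genes, 7 had a KO replicate 1 value inside the WT range, against 1 for KO replicate 2 and 0 for KO replicate 3. The pro-B and early pre-B list was at 0.01, 0.14 and 0.12 in KO and 0.04, -0.03 and 0.00 in WT. There KO replicate 1 lay among the WT arrays, while for small pre-B and immature B genes it was above them all. The arrays with less Enpep and more Cd2 and Cd24a, KO replicates 2 and 3, were those with the highest values of both lists.

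**Figure D5:**
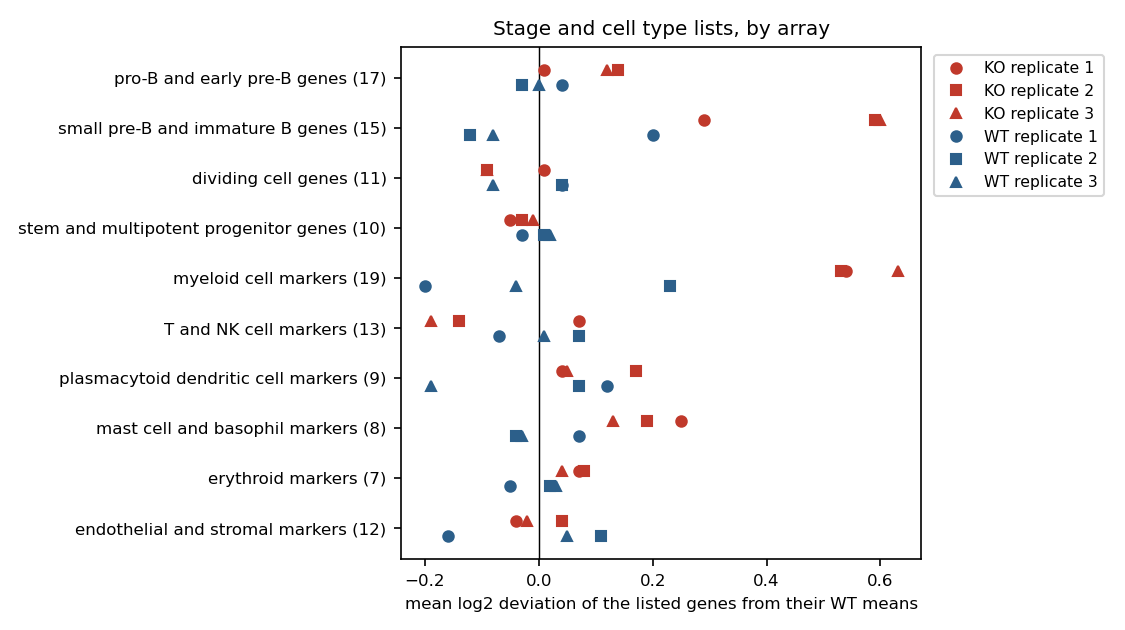
Mean log2 deviation of the listed genes from their WT means (horizontal axis) on each array, for the stage lists and the marker lists of other cell types, with the number of measured genes in brackets. Red is KO and blue is WT, and circles, squares and triangles are replicates 1, 2 and 3. Myeloid markers are at 0.53 to 0.63 in KO and -0.20 to 0.23 in WT, and small pre-B and immature B genes at 0.29 to 0.60 in KO and -0.12 to 0.20 in WT.

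Several of the 10 genes are also used by other cells, whose markers were read on the same arrays. Kit is carried by early myeloid cells, mast cells and basophil precursors. Of 19 myeloid markers, 16 had a higher KO mean and 3 rose, Mpo (myeloperoxidase, 1.605), Ctsg and Elane (granule proteases, 1.14 and 1.24), against 0.119% of all probe sets in either direction. At an unadjusted p under 0.05, 13 were higher (4.48% of all probe sets), and 12 were higher without overlap (5.94%). Of the 19, 14 exceeded the off-tissue level on all arrays, 3 on some, and Csf1r and Cd14 of monocytes on none. The calls of Ctsg and Elane were lost without certain single arrays (WT replicate 1, WT replicate 3 or KO replicate 3 for both, and KO replicate 2 or WT replicate 2 for Elane), with limma adjusted p of 0.0529 to 0.123, and that of Elane also with all rows tested (0.0566) or a further quantile normalization (0.0534). The log2 of the summed myeloid signal was 13.40 to 13.50 in KO and 12.47 to 13.13 in WT. Of 8 mast cell and basophil markers 7 had a higher KO mean, 2 exceeded the off-tissue level on all arrays and 2 on some, and the log2 of their sum was 9.53 to 9.76 in KO and 9.33 to 9.51 in WT. Among them the mast cell protease gene Cpa3 gave 0.48 and Prss34 of basophils 0.27, neither past the threshold, and Cpa3, Fcer1a, Ms4a2 and Cma1 exceeded the off-tissue level on no array. The part of these cells in the values of Kit, or of any other of the 10 genes, was not tested.

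For Cd2, the T and NK cell markers were read. Of 13 measured, 4 had a higher and 9 a lower KO mean. The off-tissue level was exceeded on all arrays by 4 of them, on some by 3 and on none by 6 (Cd3d, Cd3g, Cd8b1, Ncr1, Klrd1 and Gzma). The log2 of their sum was 10.30 to 10.59 in KO and 10.44 to 10.56 in WT. By mean deviation the list was lowest, at -0.14 and -0.19, in KO replicates 2 and 3, the arrays with the most Cd2, and the part of these cells in the Cd2 values was not tested. Klrb1c, the NK1.1 receptor gene, had the lowest difference, at -0.79 (SE 0.20, limma adjusted p = 0.256).

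For Ly6d and Flt3, which plasmacytoid dendritic cells and their precursors also carry, 9 markers of those cells were measured, 4 with a higher and 5 with a lower KO mean. Their summed signal was 11.90 to 12.18 in KO and 11.54 to 11.96 in WT as log2, made up mostly of Irf8 and Tlr9. Of the 9, 5 exceeded the off-tissue level on all arrays, 3 on some and Ccr9 on none. WT replicate 3, the array with the least Ly6d, had the lowest mean deviation of this list, at -0.19. The genes were not alike there. On that array Clec12a, Tlr9, Irf8, Tlr7 and Cox6a2 were at their lowest of all arrays, and Siglech and Pacsin1 at their highest. The part of plasmacytoid cells in the Ly6d value was not tested. Clec12a, a C-type lectin that myeloid cells carry too, and Tlr9, a receptor for DNA that B cells use as well, led the list at 0.70 and 0.40, and did not pass.

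For Cd34, Cd93 and Enpep, which vessel and stromal cells can carry, 12 endothelial and stromal markers had a log2 sum of 11.49 to 11.68 in KO and 11.41 to 11.49 in WT. Of them 6 were higher and 6 lower in KO, and 5 exceeded the off-tissue level on all arrays, 2 on some and 5 (Kdr, Tek, Emcn, Lepr and Pdgfra) on none. Vessel and stromal cells do not carry CD45, and the cells had been sorted as CD45.2+ B220+. How many vessel or stromal cells passed that sort was not tested. Pecam1, which B cells also express, was the highest at 0.23 (SE 0.10, limma adjusted p = 0.575). For Cd24a, which red cell precursors carry, 7 erythroid markers had a log2 sum of 12.40 to 12.92 in KO and 12.81 to 13.07 in WT, a sum made up mostly of Car2. Their mean deviation was 0.04 to 0.08 in KO and -0.05 to 0.03 in WT, and 3 exceeded the off-tissue level on all arrays, 2 on some and 2 (Klf1 and Gata1) on none. The carbonic anhydrase gene Car1 rose by 0.74 (limma adjusted p = 0.0307), a call lost without any 1 of the 6 arrays and with the replicate number as a block (limma adjusted p = 0.0749), while Car2 gave -0.38 and did not pass (limma adjusted p = 0.518). The part of these cells was not tested.

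The genes whose pattern over the 6 arrays was most like that of the gate transcripts were found by Pearson correlation among 8705 genes of at least median spread. For Enpep these were Cisd1, Ryk and Gart, with r of 0.996, 0.993 and 0.993, and for Ptprc Trpv2, Nop53 and Snx25, with r of 0.991, 0.989 and 0.989. With only 6 arrays, which all genes share, 93 genes had r over 0.95 with Enpep and 73 with Ptprc.

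The targeted gene and the sex of the donors were checked on the same arrays. Jup measured 7.04 to 7.27 in KO and 7.62 to 8.51 in WT, without overlap (limma adjusted p = 0.171). WT replicate 2 alone lacked the Xist signal of female cells, at 6.20 against 13.03 to 13.38 elsewhere. Without it the differences were -0.21 for Enpep, 0.19 for Ptprc, -0.30 for Flt3 and 0.19 for Cd93, in the same directions as with all arrays.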

How the data were processed

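The authors summarised the arrays with RMA in version 1.1 of Affymetrix Expression Console, according to the submitters' processing notes. The deposited log2 scale was read from the range of the values. The RMA options are not given in the sources used here. Of 35556 rows, the 21789 with exactly 1 gene symbol in the platform annotation (19938 genes) were tested, and 1621 rows with several symbols and 12146 unnamed rows were left out. Genes with several probe sets were represented by the brightest.

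KO minus WT was fitted with limma 3.58.1 in R 4.3.3 (lmFit, eBayes, prior degrees of freedom 4.33, no covariate), tested on simulated data, with Benjamini-Hochberg adjustment over all probe sets. SEs are moderated. With 3 arrays a group, their number limits the precision, and an exact permutation test of 1 gene could not go below p = 0.1. The labels do not say whether the biological replicates share donors, so p-values measure the spread between these samples. Members and lists were chosen with earlier results of these data known. From the lists, the named genes are among the 2 highest and 2 lowest by moderated t and those past the threshold. Exceptions were Ms4a1, Bach2, Il2ra, Vpreb1, Vpreb2, Irf8, Cox6a2, Siglech, Pacsin1 and genes named for their off-tissue level. These were named after their values were seen. Alternatives were filters, scalings, priors, array weights, the replicate number as a block and each array left out.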

Additional observations from a re-analysis of the deposited data

How the results depend on the processing

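Across 14 alternatives none of the 10 markers passed (limma adjusted p 0.134 to 1.00), and 133 of 137 differences kept their sign and stayed on their side of the threshold. The sign of Cd34 turned with array weights (-0.069), and it ranged from -0.082 to 0.087 with arrays left out in turn, as Spn did from -0.020 to 0.12; both are near 0, and the cause was not tested. Median centring left 2 markers without overlap, Flt3 and Cd93. The count over all probe sets, 26, was 69 with all rows, 40 with a trended prior, 150 with array weights, 17 with quantile normalization, 58 at an adjusted p under 0.1, and 5 to 82 with arrays left out: 5 without KO replicate 2 or 3, 8 without WT replicate 1 or 3, 21 without WT replicate 2 and 82 without KO replicate 1. The filter on dim probe sets removed Kit, Flt3 and Cd34. Small pre-B and immature B genes that were higher at an unadjusted p under 0.05 numbered 6 to 11. That count, those of the pro-B and myeloid lists and the differences of named list genes under the alternatives were added after seeing the data. A mean over the probe sets of a gene was not run, since each marker had 1. Same-numbered KO and WT arrays had deviations from their group means correlated at 0.10, -0.004 and 0.27. With so few arrays these values cannot settle whether the samples were paired. The sample descriptions also share numbers between KO and WT, and what these mark is not stated. The numbers were not taken to pair the samples in the main fit. The replicate block gave 19 calls over all probe sets and 0 among the markers. KO replicate 2 and WT replicates 1 and 2 did not correlate best with their own number.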
